A study of Mus musculus with 6 samples.

Results

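The proteasome genes of the liver were examined in 6 mouse liver samples, 3 labelled wildtype (arrays 426, 428 and 430) and 3 labelled Ugcg-deficient (arrays 427, 429 and 431, called knockout arrays here). Members were all rows of the expression table whose mouse gene symbol begins with Psm, a letter from a to g and a number. This rule found 42 genes among 16331 gene probe sets, of which 15644 carried a symbol. Of the 42, 40 encode proteins of the proteasome or its assembly. The other 2, Psmc3ip and Psme3ip1, share the start of the symbol but encode interaction partners and are kept apart below. Another 9 protein-coding genes of the pattern have no row in the table and were not analysed here: Psma3, Psma4, Psma5, Psmb3, Psmb5, Psmc1, Psmd2, Psme2 and Psme2b.

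Ugcg encodes the enzyme that puts glucose on ceramide, the first step towards most glycosphingolipids. The labels give the genotype and the tissue, and the study's design text sets wildtype against Ugcg-deficient liver. What strain, age and sex the mice were, and how Ugcg was inactivated, is not stated in the labels. RNA was copied into biotin-labelled cRNA and read on Affymetrix arrays, with 1 log2 expression value per gene and array. Nothing in the labels ties a sample to an animal of its own. The p-values set each group difference against the variation among these samples within the groups, and that variation may be technical. For each gene, limma takes this variation partly from the gene itself and partly from all probe sets. In whole liver RNA, fewer cells of a type and less RNA per cell cannot be told apart.

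The proteasome degrades proteins tagged with ubiquitin. Its 20S core is a barrel of stacked rings, with alpha rings at the ends that gate the entry and beta rings inside that carry the proteolytic sites. The 19S regulatory particle caps the core: its base holds the ATPases that unfold substrates, and its lid removes ubiquitin. Dedicated assembly factors build both particles and then leave. Interferons induce alternative catalytic subunits that replace the constitutive ones and form the immunoproteasome, whose products feed the presentation of peptides on class I molecules.

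Facts of the whole series bear on the members as follows. Array medians lay between 6.79 and 6.81. The albumin gene Alb read 14.60 to 14.69 on all 6 arrays. All 7 measured genes of the exocrine pancreas were highest on wildtype 430, whose list mean lay 1.84 above the wildtype mean while the other 5 arrays lay between -1.01 and -0.77. Among the 20 members followed one by one, the sign turned without wildtype 430 for Psmb10 (-0.016), Psmg4 (-0.018) and Psmf1 (-0.037). Psmb9 lay at -0.213 and Psmd5 at 0.102 in that fit. The other members were not followed this way, and the part of pancreas RNA in the members' values was not tested. Ugcg itself read 6.81, 6.85 and 6.87 on the wildtype arrays and 7.12, 6.70 and 6.68 on knockout 427, 429 and 431. The Ugcg groups overlapped (difference -0.0088, 95% interval -0.27 to 0.26, limma adjusted p = 0.998). The position of its probes relative to the inactivated part is unknown here, and the Ugcg values therefore check nothing about the genotypes.

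No proteasome gene differed between the groups past the threshold. All differences below are log2 values, the knockout mean less the wildtype mean. They ran from -0.13 for Psmb11 to 0.22 for Psmg3, and the smallest limma adjusted p of any member was 0.960. Over all probe sets 4, or 0.0245%, passed the threshold of an adjusted p under 0.05. Only 1 member of 42 (2.38%), Psmg3, reached an unadjusted p below 0.05, beside 4.99% of the whole array. That count was 4 without wildtype 428 (Psmb6, Psmb8, Psmc3 and Psmd13), where 3.99% of all probe sets reached it. It was also 4 without knockout 431 (Psmb6, Psmc3, Psmc5 and Psmg3), beside 6.26% of all probe sets. Without wildtype 426, knockout 427 or knockout 429 it was 0, beside 3.58%, 4.97% and 4.4% of all probe sets. Of the members 26 were higher and 16 lower (61.9% higher, where the whole array had 52.5%), with a median difference of 0.021 beside 0.0059 over all probe sets. The members' median was -0.000244 without wildtype 426 and 0.0566 without wildtype 428. The groups did not overlap for 5 members, or 11.9%, beside 9.57% over all probe sets: 4 were higher in the knockout arrays (5.1% of all probe sets) and 1 was lower (4.47%). With all arrays in the fit, the members' shares lie near those of the whole array.

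The intervals limit how large a difference these arrays leave room for. The 95% interval of each of the 42 members, taken 1 gene at a time, lay within 1.5-fold in both directions, as it did for 15863 of the 16331 probe sets. The lowest bound was -0.43 (Psmb9) and the highest was 0.48 (Psmb8), both immunoproteasome genes. The median spread within a group, as the pooled SD, was 0.107 for the members and 0.103 for all probe sets. Psmb4 had the smallest spread of all 42 (pooled SD 0.041) and Psmb9 the largest (0.277).

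**Figure D1:**
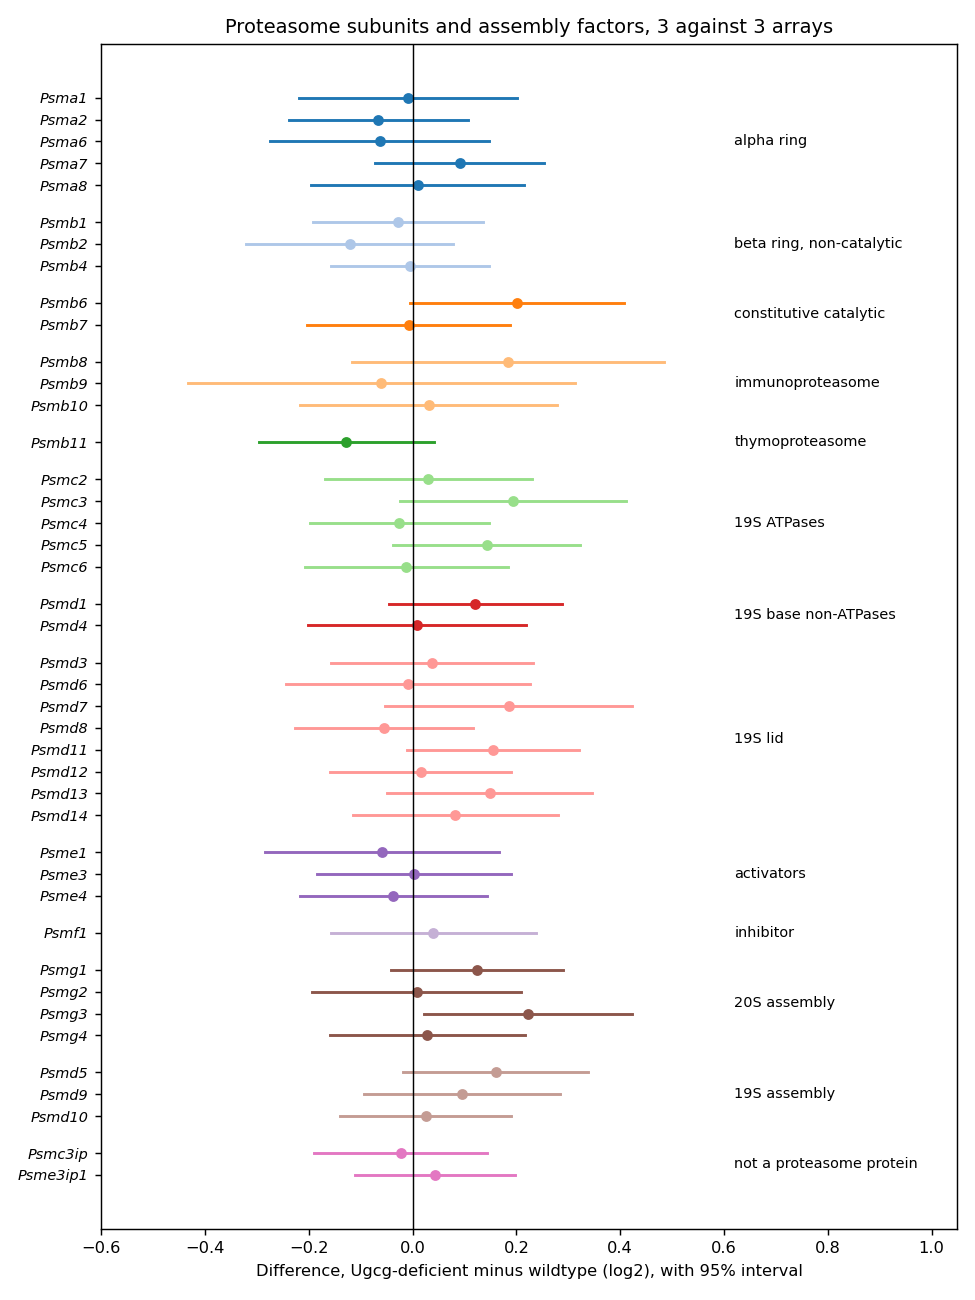
Difference between Ugcg-deficient and wildtype liver (log2, x axis) for each of the 42 members (y axis, grouped and coloured by role), as points with the 95% interval of the limma fit as lines, 3 against 3 arrays. Psmg3 is the single member whose interval does not include 0, and no interval reaches beyond -0.43 or 0.48.

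Among the genes of the 20S core, 3 of 10 measured alpha and constitutive beta genes were higher and 7 lower in the knockout arrays, with a median difference of -0.0081. The alpha ring had 2 genes higher and 3 lower. Its member with the smallest p was Psma7, which read 9.80, 9.84 and 9.73 on wildtype 426, 428 and 430 and 9.86, 9.83 and 9.95 on knockout 427, 429 and 431. The groups of Psma7 overlapped by a narrow margin, since knockout 429 lay just below wildtype 428 (difference 0.09, SE 0.07, limma adjusted p = 0.982). Psma2 read 10.79, 10.73 and 10.64 on the wildtype arrays and 10.71, 10.56 and 10.68 on the knockout arrays, again with overlap (difference -0.07). Psma1 (-0.0085) and Psma6 (-0.06), structural alpha subunits, had intervals that reached from -0.22 to 0.20 and from -0.27 to 0.15. Psma8, an alpha subunit of the testis, differed by 0.0098 and lay at or below the 40th percentile of mean level on these arrays, as Psmb11 and Psmc3ip did.

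The beta subunits that carry no proteolytic site had 3 measured genes, all lower in the knockout arrays. Psmb2 read 9.64, 9.83 and 9.83 on wildtype 426, 428 and 430 and 9.52, 9.74 and 9.67 on knockout 427, 429 and 431. Knockout 427 was the lowest array for Psmb2, but wildtype 426 lay below the other knockout arrays (difference -0.12, SE 0.09, limma adjusted p = 0.982). The difference of Psmb2 was -0.0293 without both wildtype 430 and knockout 427. Psmb1 (-0.03) and Psmb4 (-0.0059) differed by less. Psmb4 spanned only 11.59 to 11.69 over the 6 arrays.

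The constitutive catalytic subunits measured were Psmb6, the beta subunit with caspase-like activity, and Psmb7, the one with trypsin-like activity. Psmb6 read 10.83, 11.03 and 10.89 on wildtype 426, 428 and 430 and 11.23, 11.15 and 10.97 on knockout 427, 429 and 431. Wildtype 428 lay above knockout 431, so the groups overlapped. Psmb6 had the second highest difference of the members, 0.20 (1.15-fold, SE 0.09, 95% interval -0.0043 to 0.41, limma adjusted p = 0.982). Without wildtype 428 its difference was 0.257 and without knockout 427 it was 0.146. The reference lists 2 pseudogenes named after Psmb6 and 2 named after Psmb7; the probe sequences were not used here, so signal from such copies cannot be told apart from the gene's own. Psmb7 read 11.44, 11.68 and 11.44 on the wildtype arrays and 11.44, 11.55 and 11.54 on the knockout arrays. Wildtype 428 was its highest array, and the group means were nearly equal (difference -0.0078, SE 0.09, and 0.073 without wildtype 428).

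None of the 3 inducible catalytic subunits passed the threshold, and their values were uneven among the wildtype arrays. Psmb8 (also known as LMP7, with chymotrypsin-like activity) read 8.35, 8.89 and 8.42 on wildtype 426, 428 and 430 and 8.78, 8.78 and 8.66 on knockout 427, 429 and 431. Psmb9 (LMP2) read 8.14, 8.71 and 7.96 on the wildtype arrays and 8.24, 8.22 and 8.16 on the knockout arrays. Psmb10 (MECL-1) read 8.70, 9.09 and 8.76 on the wildtype arrays and 8.93, 8.94 and 8.78 on the knockout arrays. All 3 genes were highest on wildtype 428, as were 10 of the 42 members, and that array lay 0.289, 0.562 and 0.270 above the mean of the other 5 arrays for Psmb8, Psmb9 and Psmb10; over all probe sets 17.2% were highest on that array. The SD of the wildtype arrays was 0.29, 0.39 and 0.21 for Psmb8, Psmb9 and Psmb10, against 0.07, 0.04 and 0.09 for the knockout arrays; the difference in spread was not tested.

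The genotype difference of the inducible subunits moved with which wildtype array was left out. Psmb8 differed by 0.18 (1.14-fold, SE 0.13, 95% interval -0.12 to 0.48, limma adjusted p = 0.982), Psmb9 by -0.06 (SE 0.16, limma adjusted p = 0.996) and Psmb10 by 0.03 (SE 0.11, limma adjusted p = 0.996). Without wildtype 428 the differences were 0.351 for Psmb8, 0.159 for Psmb9 and 0.152 for Psmb10, and the sign of Psmb9 turned. Without wildtype 426 they were 0.084, -0.126 and -0.042, and without wildtype 430 they were 0.118, -0.213 and -0.016, so that the sign of Psmb10 turned in both cases. In the fit without wildtype 428 the 3 knockout arrays of Psmb8 lay above both remaining wildtype arrays, with an unadjusted p of 0.00348 and a limma adjusted p of 0.999. Wildtype 428 was singled out after the values were seen.

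**Figure D2:**
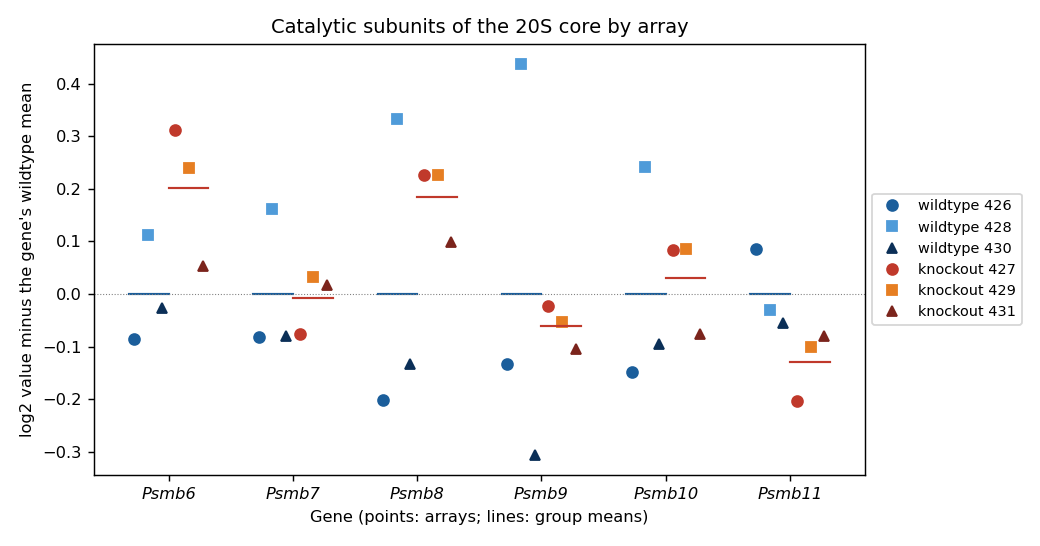
Log2 value minus the gene's wildtype mean (y axis) for 6 catalytic or catalytic-like beta subunits (x axis), 1 point per array with wildtype in blue and knockout in red or orange, and group means as lines. Wildtype 428 is the highest array for Psmb7, Psmb8, Psmb9 and Psmb10.

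The inducible subunits were also set against the constitutive ones, since they take their places in the same beta rings. The mean of Psmb8, Psmb9 and Psmb10 minus the mean of Psmb6 and Psmb7 was computed on each array. Psmb5, the third constitutive site, has no row, so 3 inducible genes stood against 2 constitutive ones. Psmb8, the inducible counterpart of Psmb5, stayed in without its partner, and a contrast of matched subunits only was not computed. Relative to the wildtype mean this contrast was -0.08, 0.20 and -0.12 on wildtype 426, 428 and 430. It was -0.02, -0.05 and -0.06 on knockout 427, 429 and 431. The knockout arrays lay close together and between the wildtype arrays, with a mean of -0.045 ± 0.02 against 0 ± 0.175 (SD, 3 arrays each). The difference was 0.055 without wildtype 428, -0.083 without wildtype 426, -0.107 without wildtype 430 and -0.118 without both wildtype 430 and knockout 427. In the fit without wildtype 428, Psmb8 differed by 0.351, Psmb9 by 0.159 and Psmb10 by 0.152. Psmb6 differed by 0.257 and Psmb7 by 0.073 there.

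The promoters of these genes are shown because the inducible subunits were highest on the same array, with Psmb6 as the constitutive subunit beside them. Sequences are the RefSeq windows of the GRCm38.p6 assembly, printed 5′ to 3′ for the 250 bases before the annotated start, with letters in capitals where a searched motif matched on either strand. The capitals mark CCAAT, the box bound by NF-Y, in Psmb9 (as its reverse complement), and TGACNNNGC, the core of the antioxidant response element, in Psmb6. The windows of Psmb8 and Psmb10 hold no match here.
Psmb8, chr17:34197945-34198194, plus strand: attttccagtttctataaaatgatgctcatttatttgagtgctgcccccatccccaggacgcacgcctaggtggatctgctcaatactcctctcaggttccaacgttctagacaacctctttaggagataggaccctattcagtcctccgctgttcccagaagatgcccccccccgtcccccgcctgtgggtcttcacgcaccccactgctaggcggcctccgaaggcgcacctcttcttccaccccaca
Psmb9, chr17:34187331-34187580, minus strand: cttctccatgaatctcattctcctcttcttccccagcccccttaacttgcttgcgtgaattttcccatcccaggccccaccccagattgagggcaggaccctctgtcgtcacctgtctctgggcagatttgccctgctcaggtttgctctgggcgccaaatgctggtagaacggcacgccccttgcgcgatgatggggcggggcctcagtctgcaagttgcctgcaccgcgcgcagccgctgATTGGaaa
Psmb10, chr8:105938393-105938642, minus strand: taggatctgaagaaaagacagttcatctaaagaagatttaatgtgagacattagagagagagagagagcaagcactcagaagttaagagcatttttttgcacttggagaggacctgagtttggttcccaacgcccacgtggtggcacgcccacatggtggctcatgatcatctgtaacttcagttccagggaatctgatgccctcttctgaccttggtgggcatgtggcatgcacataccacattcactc
Psmb6, chr11:70525107-70525356, plus strand: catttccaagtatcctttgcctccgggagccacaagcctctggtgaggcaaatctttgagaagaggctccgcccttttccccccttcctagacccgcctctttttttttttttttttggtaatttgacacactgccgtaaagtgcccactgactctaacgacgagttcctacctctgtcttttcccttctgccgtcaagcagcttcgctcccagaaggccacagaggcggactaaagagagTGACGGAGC

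Promoter windows that run from 250 bases before to 50 after the start were found for 34 of the 42 members and for 27025 genes in all. TGACNNNGC was held by 5 of the 34 (14.7%, beside 14% of all genes): Psmb6, Psmc6, Psmd9, Psmd12 and Psme4. CCAAT was held by 13 (38.2%, beside 41.1%), Psmb9 among them. The interferon-stimulated response element, searched as GAAA, any NN, then GAAA, was held by 4 (11.8%, beside 3.99%): Psmd4, Psmd9, Psme1 and Psmg4. None of the 3 immunoproteasome windows held it, which says only that these letters are not in these windows. Motifs were searched on both strands and a match is a description of letters. In the order of protein-coding genes along chromosome 17, Psmb9, Tap1, Psmb8 and Tap2 follow each other, while Psmb10 lies on chromosome 8.

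Psmb11, the catalytic subunit of the thymoproteasome found in thymic epithelium, had the lowest difference of all members. It read 6.25, 6.14 and 6.11 on wildtype 426, 428 and 430 and 5.97, 6.07 and 6.09 on knockout 427, 429 and 431. The groups did not overlap, although knockout 431 and wildtype 430 were separated by a narrow gap (difference -0.13, 1.09-fold lower in the knockout, SE 0.07, limma adjusted p = 0.982). Its level lay among the lower 40% of probe sets, where background contributes most to an array value.

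Genes outside the symbol pattern that belong with the inducible subunits were compared on the same arrays. Of 12 listed genes of class I antigen presentation 10 had a row. Of these 6 were higher, 4 lower and 0 passed limma's threshold, with a median difference of 0.019. An unadjusted p under 0.05 was reached by 1 of the 10 genes (10%), beside 4.99% of all probe sets. That gene was Tapbp (tapasin, which loads peptides onto class I molecules), at 0.29 (SE 0.11, limma adjusted p = 0.951). Tap1, a subunit of the peptide transporter, differed by 0.15 (limma adjusted p = 0.982). Class I genes were highest on wildtype 428 in 3 of 10 cases (30%), beside 17.2% of all probe sets. These were B2m by 0.271, H2-K1 by 0.229 and H2-D1 by 0.189 over the mean of the remaining 5. The median difference of this list was 0.105 without wildtype 428, and its sign turned without wildtype 426 (-0.013) or knockout 429 (-0.012).

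Of 12 interferon-response genes 9 had a row, with 4 higher, 5 lower and a median difference of -0.047; 0 passed limma's threshold and 0 had an unadjusted p under 0.05. The sign of that median turned without wildtype 428 (0.077), knockout 427 (0.050) or knockout 431 (0.049). Stat2, a subunit of the factor that interferons activate, differed by 0.12, and the chemokine gene Cxcl9 by -0.26 (limma adjusted p = 0.982 for both). Of the 9 genes, 4 (44.4%) were highest on wildtype 428, beside 17.2% of all probe sets. These were Ifit1 (0.809), Cxcl9 (0.745), Irf1 (0.333) and Gbp3 (0.313), each time measured against the mean of the remaining 5. Another 4 (44.4%, beside 18.9% of all probe sets), Irf7, Irf8, Stat2 and Gbp2, were highest on knockout 429, and Stat2 was lowest on wildtype 428. The list mean of the interferon genes, relative to wildtype, was 0.245 on wildtype 428 and 0.103 on knockout 429, and it lay between -0.16 and -0.08 on the other 4 arrays.

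Leukocyte markers were also uneven between arrays. Of 8 measured, the 3 genes of class II presentation, Cd74, H2-Aa and H2-Ab1, were highest on wildtype 428. That array lay 0.579, 0.479 and 0.512 above the mean of the other arrays for these. On the same measure Ptprc lay at 0.032, Cd3e at 0.047, Cd3g at -0.073, Cd8a at -0.007 and Nkg7 at -0.003. The list mean ran from -0.17 to 0.13 over the wildtype and from -0.21 to 0.14 over the knockout arrays, with 3 genes higher and 5 lower in the knockout. Its highest array was knockout 429 (0.14), not wildtype 428 (0.13). Kupffer cell markers had a list mean of -0.06 on wildtype 428, 0.20 on knockout 429 and -0.39 on knockout 431. All 8 were lower in the knockout with 0 past the threshold. Their median difference was -0.119, and its sign turned without knockout 431 (0.037). No marker reads 0 on this scale, but Cd3g, Cd8a and Nkg7 lay at or below the 40th percentile of mean level. The part of leukocytes or of interferon in the values of the inducible subunits was not tested.

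**Figure D3:**
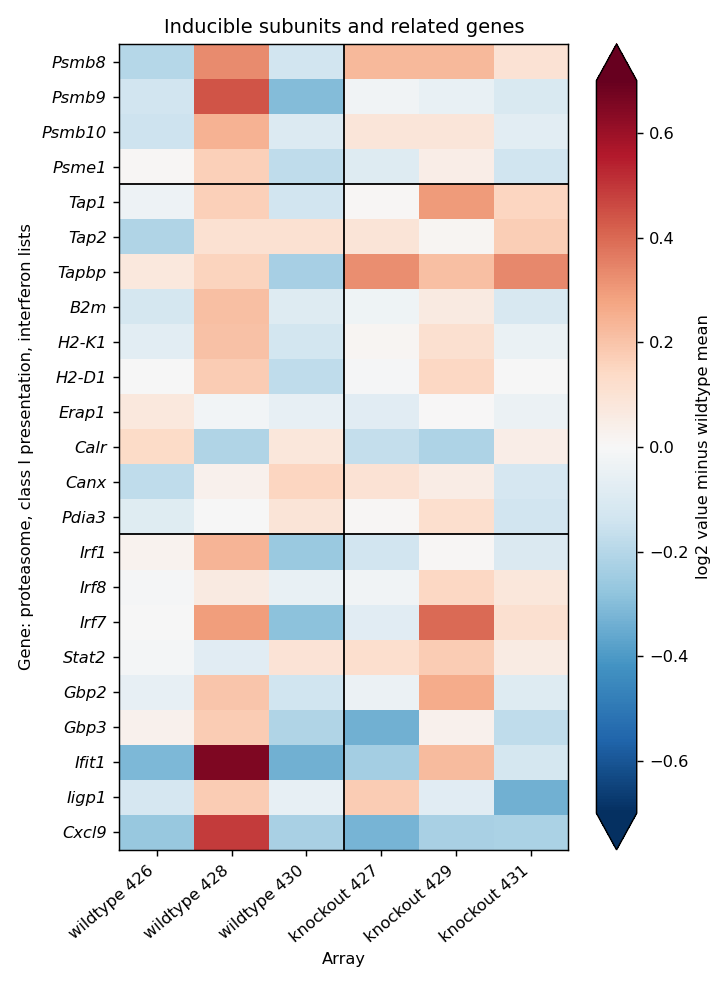
Log2 value minus the gene's wildtype mean (colour) on each of the 6 arrays (columns) for the inducible proteasome genes, the class I presentation list and the interferon list (rows, separated by black lines). The column of wildtype 428 is red for Psmb8, Psmb9, Psmb10, B2m, H2-K1, Ifit1 and Cxcl9. Calr, Erap1 and Stat2 lay below their wildtype means on that array. Tap1, Pdia3, Irf7, Irf8, Stat2 and Gbp2 were highest on knockout 429.

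In the 19S regulatory particle, 11 of 15 measured genes were higher in the knockout arrays and 4 lower, with a median difference of 0.038. None passed, and the smallest unadjusted p was that of Psmd11 (0.0646). The ATPases of the base, which form the ring that pulls substrates into the core, had 3 genes higher and 2 lower. Psmc3 read 10.06, 10.28 and 10.11 on wildtype 426, 428 and 430 and 10.40, 10.45 and 10.18 on knockout 427, 429 and 431. Its groups overlapped because wildtype 428 lay above knockout 431 (difference 0.19, 1.14-fold, SE 0.10, limma adjusted p = 0.982). Psmc5 differed by 0.14, and Psmc2 (0.03), Psmc4 (-0.03) and Psmc6 (-0.01) by less.

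The base genes that are not ATPases were both higher. Psmd1, a scaffold subunit of the base, read 10.23, 10.40 and 10.38 on wildtype 426, 428 and 430 and 10.43, 10.50 and 10.45 on knockout 427, 429 and 431. All knockout arrays lay above all wildtype arrays, by a narrow gap to wildtype 428 (difference 0.12, SE 0.07, limma adjusted p = 0.982). Psmd4, a receptor for ubiquitin chains, differed by 0.0085.

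Of the 8 lid genes measured 6 were higher and 2 lower. Psmd11 read 10.76, 10.89 and 10.90 on wildtype 426, 428 and 430 and 11.01, 11.05 and 10.94 on knockout 427, 429 and 431. Its groups did not overlap, with knockout 431 the nearest to the wildtype arrays (difference 0.15, 1.11-fold, SE 0.07, limma adjusted p = 0.982). Psmd7 differed by 0.18, and its highest array was knockout 427 at 9.96, with the other 5 between 9.43 and 9.70. Psmd13 differed by 0.15, and Psmd14, the deubiquitinase of the lid, by 0.08. Psmd3 (0.04), Psmd12 (0.02), Psmd6 (-0.0091) and Psmd8 (-0.05) completed the lid.

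The other caps and the inhibitor had differences smaller than the spread between arrays of a group. Psme1, a subunit of the interferon-inducible PA28 activator, read 10.50, 10.66 and 10.31 on wildtype 426, 428 and 430 and 10.40, 10.54 and 10.35 on knockout 427, 429 and 431. Psme1 too was highest on wildtype 428 (difference -0.06, SE 0.10, limma adjusted p = 0.991, and 0.025 without that array). Psme3, the nuclear activator PA28 gamma, differed by 0.0023, and Psme4, the activator PA200, by -0.04. Psmf1, an inhibitor and regulator of the 20S core, read 7.61, 7.65 and 7.40 on the wildtype arrays and 7.53, 7.68 and 7.57 on the knockout arrays. Its groups overlapped, with knockout 429 the highest and wildtype 430 the lowest array (difference 0.04, SE 0.09, limma adjusted p = 0.996).

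All 7 measured assembly factors had a positive difference, with a median of 0.095, yet none passed. The 4 Psmg genes encode the chaperones that build the alpha ring of the core. Psmg3 read 8.58, 8.68 and 8.72 on wildtype 426, 428 and 430 and 9.01, 8.90 and 8.73 on knockout 427, 429 and 431. Every knockout array lay above every wildtype array, but knockout 431 exceeded wildtype 430 by little. The difference was 0.22 (1.17-fold, SE 0.09, 95% interval 0.022 to 0.42, unadjusted p = 0.0336, limma adjusted p = 0.960). Left without 1 array, it ran from 0.157 to 0.296, with an unadjusted p above 0.05 in 4 of the 6 cases and a limma adjusted p of at least 0.681.

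Psmg1, which acts as a pair with Psmg2, read 9.51, 9.54 and 9.65 on wildtype 426, 428 and 430 and 9.70, 9.75 and 9.62 on knockout 427, 429 and 431. Wildtype 430 lay above knockout 431, so the groups overlapped (difference 0.13, SE 0.07, limma adjusted p = 0.982). Psmg2 read 8.65, 8.54 and 8.58 on the wildtype arrays and 8.57, 8.47 and 8.76 on the knockout arrays, and thus did not follow Psmg1 (difference 0.0078). Psmg4, the partner of Psmg3, read 8.22, 8.31 and 8.13 on the wildtype arrays and 8.32, 8.29 and 8.13 on the knockout arrays (difference 0.03). The knockout values of Psmg4 fell within or at the edge of the wildtype range.

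Of the chaperones of the 19S base, Psmd5 read 9.14, 9.17 and 8.98 on wildtype 426, 428 and 430 and 9.18, 9.27 and 9.31 on knockout 427, 429 and 431. Its groups did not overlap (difference 0.16, 1.12-fold, SE 0.08, limma adjusted p = 0.982). Psmd9 differed by 0.10, with wildtype 426 low at 7.38 and the other 5 arrays between 7.59 and 7.63. Psmd10, also called gankyrin, differed by 0.03.

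**Figure D4:**
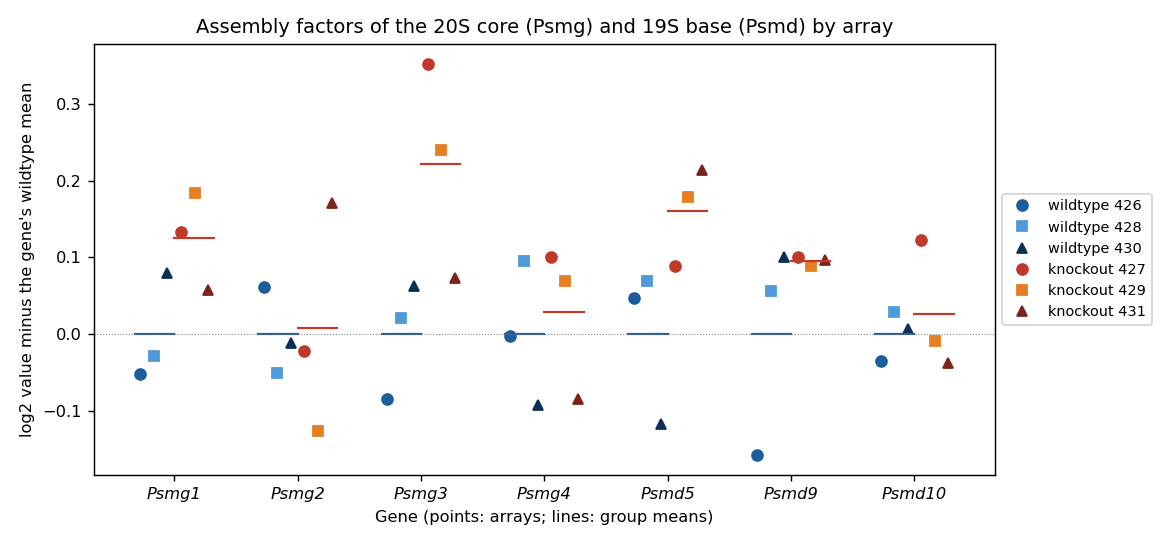
Log2 value minus the gene's wildtype mean (y axis) for the 4 chaperones of the 20S core and the 3 of the 19S base (x axis), with 1 point per array and group means as lines. Psmg3 and Psmd5 are the genes whose knockout arrays all lie above the wildtype arrays.

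The role classes were then compared with each other by array. Wildtype 426 was the lowest array for 14 of the 42 members (33.3%), beside 17.2% of all probe sets, and these included 7 of the 15 genes of the 19S particle. The mean of the 8 lid genes, relative to wildtype, was -0.06, 0.04 and 0.02 on wildtype 426, 428 and 430 and 0.14, 0.07 and 0.002 on knockout 427, 429 and 431. The mean of the 4 Psmg genes was -0.02, 0.01 and 0.01 on the wildtype arrays and 0.14, 0.09 and 0.05 on the knockout arrays. The immunoproteasome mean was -0.16, 0.34 and -0.18 on the wildtype arrays and 0.10, 0.09 and -0.03 on the knockout arrays. The median of the differences was 0.097 for the 2 constitutive catalytic genes, 0.095 for the 19S chaperones and 0.077 for the 20S chaperones. It was 0.064 for the base genes that are not ATPases, 0.060 for the lid, 0.031 for the ATPases and 0.031 for the immunoproteasome. Below these lay the alpha ring (-0.0085), the beta subunits without a proteolytic site (-0.027) and the activators (-0.037). With 1 array left out the median ran from -0.042 to 0.159 for the immunoproteasome, from -0.0094 to 0.102 for the ATPases, from 0.027 to 0.120 for the lid and from -0.063 to 0.025 for the activators. In the same fits the median of the constitutive catalytic genes ran from 0.055 to 0.165. That of the base genes that are not ATPases ran from 0.0078 to 0.106. That of the beta subunits without a proteolytic site ran from -0.061 to 0.0020. These medians describe the classes and were not tested against each other.

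**Figure D5:**
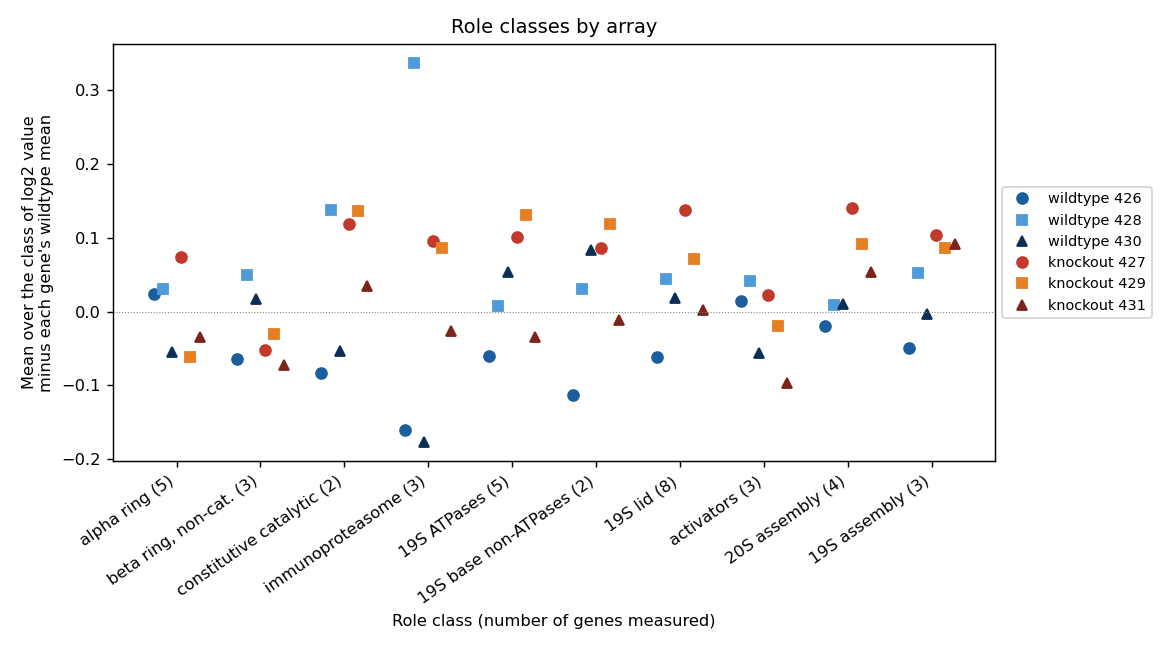
Mean over each role class of the log2 value minus each gene's wildtype mean (y axis) for the 10 classes with at least 2 measured genes (x axis), with 1 point per array. The widest span is that of the immunoproteasome, from -0.18 on wildtype 430 to 0.34 on wildtype 428.

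Proteasome partners, regulators of proteasome genes and ubiquitin genes outside the symbol pattern were counted the same way. Of 14 partners 12 had a row, with 8 higher, 4 lower and a median of 0.037; limma called 0, and 0 had an unadjusted p under 0.05. The sign of the partners' median turned without wildtype 426 (-0.0093) or knockout 427 (-0.0086). Zfand5, which binds the proteasome and stimulates it, differed by -0.27 and Akirin2, which helps proteasomes enter the nucleus, by -0.09 (limma adjusted p = 0.982 for both). Of 12 genes for the transcription of proteasome genes 9 had a row, with 4 higher, 5 lower and a median of -0.022. Of these limma called 0, and 1 (11.1%) had an unadjusted p under 0.05, beside 4.99% of all probe sets. The sign of that median turned without wildtype 428 (0.0088) or wildtype 430 (0.0047). The gene with that p was Mafg, a small Maf partner of NRF1 and NRF2, at -0.24 (limma adjusted p = 0.952), and Nfe2l2, which encodes NRF2, differed by 0.14. Of 16 genes of ubiquitin and its delivery 10 had a row, with 8 higher, 2 lower and a median of 0.028; limma called 0, and 0 had an unadjusted p under 0.05. With 1 array left out the ubiquitin median ran from 0.0014 (without knockout 431) to 0.066 (without wildtype 430). Faf2, an adaptor of the p97 segregase, differed by 0.21, and Uba6, a ubiquitin-activating enzyme, by 0.15.

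The 2 genes that share only the start of the symbol were measured as well. Psme3ip1, a partner of the PA28 gamma activator, read 8.60, 8.61 and 8.54 on wildtype 426, 428 and 430 and 8.61, 8.59 and 8.68 on knockout 427, 429 and 431. The groups overlapped (difference 0.04, SE 0.07, limma adjusted p = 0.987). Psmc3ip, a factor of meiotic recombination, differed by -0.02. Without both genes the median difference of the remaining 40 members was the same, 0.021.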

How the data were processed

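The authors deposited log2 expression values from Affymetrix arrays, 1 per gene and array; the log2 scale was read from the values. Array type, background correction, normalization and software: not given in the sources used here. Values were used as deposited. Of 16395 rows, 64 manufacturer's controls were left out, and 687 unnamed probe sets stayed in the tests. Each row is named by an Entrez number, and symbols came from the platform annotation. The gene order and symbols without a row came from the GRCm38.p6 gene table.

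Groups were taken from the sample titles. limma 3.58.1 (R 4.3.3; lmFit, then eBayes; residual degrees of freedom 4, prior 4.85) compared knockout with wildtype, two-sided, with Benjamini-Hochberg adjustment over 16331 probe sets and a threshold of 0.05. The fit was run on simulated data with added differences larger than any seen among the members. Its power at the size of the members' differences was not checked. An interval is the fit's 95% interval. Lists are given by counts and medians.

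Members and lists were chosen with earlier results of these data known. Values on every array are given for the catalytic genes, Psme1, the Psmg genes and members at an unadjusted p under 0.05. They are also given for the smallest p in each role class and for the 3 highest and 3 lowest differences. Of each related list, the 2 genes with the smallest p are named. Others are named as examples, some chosen after their values were seen. Psmb5 has no row, so the planned contrast used the 2 other constitutive sites. The alternatives tried were arrays left out, an adjusted p under 0.1, array quality weights, a robust variance with intensity trend, removal of the lowest 40% of probe sets by mean level, median centring and quantile normalization. Figures used matplotlib 3.10.9 in Python 3.11.15.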

Additional observations from a re-analysis of the deposited data

How the results depend on the processing

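No member passed the limma threshold under any alternative run, an adjusted p under 0.1 included; the smallest adjusted p of a member was 0.681. The number of members at an unadjusted p under 0.05 was 1 with all arrays, beside 4.99% of all probe sets. After quantile normalization it was 2 (Psmb6 and Psmg3), again beside 4.99%. With 1 array left out it ran from 0 to 4. It was 0 without wildtype 426 (3.58% of all probe sets), knockout 427 (4.97%) or knockout 429 (4.4%). It was 4 without wildtype 428 (3.99%) or knockout 431 (6.26%), and 0 without both 430 and 427 (6.75%). The median over all members ran from -0.000244 (without wildtype 426) to 0.0566 (without wildtype 428). The median of all probe sets moved by at most 0.00511. The alpha ring median ran from -0.0820 to 0.0160 with 1 array left out and was -0.0859 without both 430 and 427. That of the 19S chaperones ran from 0.0168 to 0.124, and was 0.119 with array quality weights and 0.138 without both arrays.

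Of the 20 members chosen by the naming rule 13 kept their sign under the alternatives in which they were tested; the differences of the other 22 were not followed one by one. With 1 array left out, Psmb7 ran from -0.0488 to 0.0732, Psmb9 from -0.213 to 0.159, Psmb10 from -0.0422 to 0.152, Psme1 from -0.148 to 0.0254, Psmg2 from -0.0736 to 0.0749, Psmg4 from -0.0176 to 0.0853 and Psmf1 from -0.0368 to 0.0892. Psmg2 was -0.00399 after quantile normalization, and without both arrays Psmb10 was -0.0420, Psmg4 -0.0537 and Psmf1 -0.00586. The causes were not tested. No paired analysis was run because the labels state no pairs between the groups. The number of arrays limits the precision.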
